A study of Mus musculus with 12 samples.

Results

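The 33 genes described here mark the oligodendrocyte lineage and myelin in mouse brain. They were chosen by name, as genes used by precursor, differentiating and mature oligodendrocytes; the rule uses no measured value, though earlier results of these data were known when it was set. All 33 were found among the 55536 annotated genes of the count tables. They fall into 6 groups by role: 2 precursor genes, 3 transcription factors of the lineage, 6 genes of differentiating cells, 9 proteins of the myelin sheath, 4 enzymes of myelin lipid and acetate metabolism, and 9 other genes of mature oligodendrocytes. The last 3 groups together hold 22 genes and are called the mature genes below.

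Oligodendrocytes wrap axons of the brain and spinal cord in myelin, a stack of lipid-rich membrane that speeds conduction. They arise from dividing precursor cells, which leave the cell cycle, pass through a premyelinating stage and then switch on, under transcription factors such as SOX10 and MYRF, the genes for sheath proteins and for the enzymes of galactolipid synthesis. In the mouse forebrain and cerebellum the main wave of myelination runs through the first postnatal weeks, and white matter tracts hold most of the mature cells.

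Cerebellum and cerebral cortex were taken at 1 month of age from *Snx14*-KO and WT mice, all on the C57BL/6J background. The knockout mice, made by Cas9 injection into fertilized eggs, were homozygous for a deletion of 1 base in *Snx14*, which encodes a sorting nexin of the endoplasmic reticulum and lipid droplets, and every cell of the mouse carried the allele. There were 3 libraries from 3 mice in each of the 4 groups (WT and KO cerebellum, WT and KO cortex), 12 libraries in all, and the sample titles give the same mouse number to a cerebellum and a cortex. The tissues were not sorted, so that in every value below fewer oligodendrocytes and less RNA in each of them cannot be told apart. Nor can RNA of these genes from other cell types be set apart.

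The libraries held 16672589 to 19887427 counts over all genes, where a read that overlapped several genes counted in each. *Snx14* itself checked the labels: its level was 63.6 to 67.0 CPM (counts scaled to library size) in WT cerebellum and 10.4 to 11.2 in KO cerebellum, and 53.6 to 59.8 in WT cortex and 7.69 to 8.503 in KO cortex. By edgeR's quasi-likelihood test it was the 1 gene past both thresholds in either tissue, which were a log2 fold change beyond 0.50 in size and an adjusted p under 0.05. DESeq2 gave 164 genes past them in cerebellum and 9 in cortex, and edgeR without a filter on low counts gave 347 and 149. Several libraries stood apart from their group. The summed level of 16 marker genes of meningeal fibroblasts was 442.7 CPM in KO cortex 2 and 119.9 to 181.5 in the other 5 cortices, and it was 543.1 to 614.8 in the KO cerebella and 199.9 to 411.3 in the WT cerebella. The summed level of 10 microglial markers was 567.9 CPM in KO cerebellum 3 and 198.3 to 251.5 in the other 5 cerebella. Their part in the results below was not tested. Several values are given also without KO cortex 2 or without KO cerebellum 3.

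The 33 genes lie on 16 chromosomes (GRCm38). Most stand alone in the annotation. Of the 13 that share exon bases with another gene, 12 share under 15%, the most being *Plekhh1*, which shares 14.8% of its exon bases with *Pigh* on the opposite strand. *Trf*, which encodes the iron carrier transferrin, shares 63.5% of its exon bases with the same-strand gene model *Gm20425*, and reads there were counted to both. *Olig1* and *Olig2*, neighbours on chromosome 16, are 41094 bases apart and do not overlap.

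RefSeq start-site windows on GRCm38.p6 were at hand for 25 of the 33 genes. The windows of the 4 genes with the smallest p in cortex among these 25 are shown, since all KO cortices lay below all WT cortices for these genes. The window of *Mog* was added because it held a match to the MYRF core. Each line gives the 250 bases before the annotated start, read 5′ to 3′ along the gene, with matches to 3 short motifs in capitals.

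*Plekhh1*, chr12:79028913-79029162, plus strand: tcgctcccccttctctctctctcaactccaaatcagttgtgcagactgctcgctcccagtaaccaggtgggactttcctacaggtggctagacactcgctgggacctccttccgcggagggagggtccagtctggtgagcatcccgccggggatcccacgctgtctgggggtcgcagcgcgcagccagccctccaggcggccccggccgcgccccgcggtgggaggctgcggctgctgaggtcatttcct
*Tmem88b*, chr4:155785875-155786124, minus strand: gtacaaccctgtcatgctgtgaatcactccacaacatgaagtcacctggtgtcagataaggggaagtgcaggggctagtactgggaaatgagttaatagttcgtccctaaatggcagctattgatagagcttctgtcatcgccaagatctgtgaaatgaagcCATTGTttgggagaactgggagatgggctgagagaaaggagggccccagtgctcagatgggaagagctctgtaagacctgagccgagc
*Mal*, chr2:127656696-127656945, minus strand: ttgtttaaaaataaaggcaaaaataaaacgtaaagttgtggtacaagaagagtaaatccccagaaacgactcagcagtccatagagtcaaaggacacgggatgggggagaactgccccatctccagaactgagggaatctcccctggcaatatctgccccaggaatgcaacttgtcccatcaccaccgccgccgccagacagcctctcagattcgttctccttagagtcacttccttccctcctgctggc
*Ermn*, chr2:58052865-58053114, minus strand: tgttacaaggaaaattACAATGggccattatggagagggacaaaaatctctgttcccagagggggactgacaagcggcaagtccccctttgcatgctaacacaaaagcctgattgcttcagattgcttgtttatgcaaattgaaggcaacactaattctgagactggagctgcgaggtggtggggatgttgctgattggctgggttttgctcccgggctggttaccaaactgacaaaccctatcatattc
*Mog*, chr17:37023399-37023648, minus strand: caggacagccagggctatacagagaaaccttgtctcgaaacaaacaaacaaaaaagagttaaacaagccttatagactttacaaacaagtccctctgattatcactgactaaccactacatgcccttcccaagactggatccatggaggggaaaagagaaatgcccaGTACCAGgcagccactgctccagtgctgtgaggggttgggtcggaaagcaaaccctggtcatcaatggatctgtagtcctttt

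The motifs were the SOX-type site (ACAAAG or ACAATG), the MYRF core (CTGGCAC or CTGGTAC) and the E-box of OLIG2 (CAGCTG), searched on both strands and each counted by itself, though an E-box and a MYRF core can share bases. A SOX-type site stood in the windows of *Tmem88b* and *Ermn*, and a MYRF core in that of *Mog*. The windows of *Plekhh1* and *Mal* held none of these letters. Over all starts of a gene, 13 of the 25 genes had a SOX-type site, 3 had a MYRF core (*Mog*, *Mag* and *Cnp*) and 1 had the E-box (*Aspa*). Among the 27025 genes with a window, the shares were 28.2% for the SOX-type site, 6.79% for the MYRF core and 14.7% for the E-box. These matches describe letters in a window and were not tested as binding sites.

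The first comparison asked how the lineage differs between the 2 tissues without the knockout. WT cerebellum held more transcript of most of the genes than WT cortex, and the 2 precursor genes, *Pdgfra* and *Cspg4*, ran the other way. Precursor genes outside the list, 12 in number and described below, were split. Of these, 8 were lower in WT cerebellum and 4 higher, with a median log2 fold change of -0.23. Past both thresholds, 2 were lower and 3 higher. On the scale of CPM per kilobase of exon, *Mbp*, which encodes myelin basic protein, had the highest level in both tissues, with 643 ± 94.8 in cerebellum and 362 ± 11.1 in cortex (SD, n = 3). *Cspg4*, the NG2 proteoglycan of precursor cells, had the lowest, with 0.797 ± 0.149 and 1.31 ± 0.125. In WT cortex *Mobp*, *Cnp*, *Mal* and *Cldn11*, all encoding proteins of the sheath, came next after *Mbp*, and of these *Cnp* and *Mal* overlapped. In WT cerebellum *Trf* stood second with 251 ± 18.3 CPM per kilobase, beside *Mobp* with 249.4 ± 46.0, and these levels overlapped. Ranked by level, the ranges of neighbouring genes over the 3 libraries did not overlap in 9 of 32 pairs in WT cerebellum and in 14 of 32 pairs in WT cortex. The ranges of the other neighbours overlapped.

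**Figure D1:**
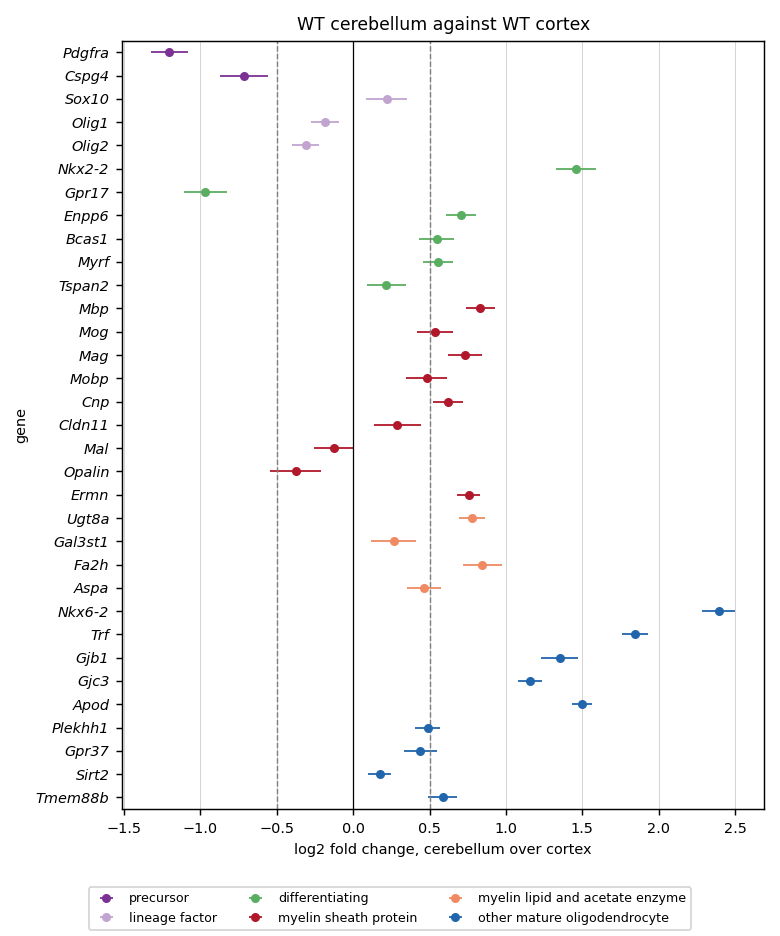
Log2 fold change of WT cerebellum over WT cortex (x axis) for each of the 33 genes (y axis), from edgeR, with bars of 1 standard error and colours for the 6 groups; 3 libraries per tissue, dashed lines at -0.50 and 0.50. *Nkx6-2* and *Trf* lie farthest to the right, at 2.39 and 1.84, and *Pdgfra*, *Gpr17* and *Cspg4* lie to the left of the dashed line at -0.50.

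In edgeR's quasi-likelihood test, 17 of the 33 genes were higher in WT cerebellum past both thresholds and 3 were lower. Of all 18543 genes tested, 19.0% were higher and 21.4% lower by the same rule. The median log2 fold change was 0.54 over the 33 genes and 0.02 over all genes. Both precursor genes were lower in cerebellum. *Pdgfra*, the receptor for platelet-derived growth factor on precursor cells, was at 28.9, 34.1 and 29.4 CPM in the WT cerebella and at 80.3, 74.4 and 58.5 CPM in the WT cortices. The groups did not overlap, and the fold change was -1.20 ± 0.12 on the log2 scale (SE; edgeR, adjusted p = 9.47e-06). *Gpr17*, a receptor of cells about to differentiate, was at 32.4 to 47.7 CPM in cerebellum and 69.5 to 89.8 in cortex, a fold change of -0.97 ± 0.14 (edgeR, adjusted p = 0.000163).

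The lineage factors differed little. *Olig2*, needed to specify the lineage, passed the test but not the fold threshold at -0.31 ± 0.09 (edgeR, adjusted p = 0.0115), and *Olig1* and *Sox10* did not pass the test, at -0.19 ± 0.09 and 0.22 ± 0.14. Among the other genes of differentiating cells, *Nkx2-2*, a homeodomain factor, was 1.46 ± 0.13 higher in cerebellum on the log2 scale, at 13.8 to 14.98 CPM against 4.84 to 5.58. *Enpp6*, a choline-releasing phosphodiesterase of newly formed oligodendrocytes, was 0.71 ± 0.10 higher, and *Bcas1*, a marker of cells starting to myelinate, and *Myrf* were 0.55 ± 0.11 and 0.56 ± 0.10 higher. *Bcas1* lost the fold threshold without WT cerebellum 1 (0.448), WT cerebellum 2 (0.499) or WT cortex 1 (0.495), and *Myrf* without WT cortex 1 (0.49).

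The sheath proteins were split. *Mbp*, *Ermn*, *Mag*, *Cnp* and *Mog* were higher in cerebellum past both thresholds, with log2 fold changes of 0.54 (*Mog*) to 0.83 (*Mbp*). *Mobp* passed the test at 0.48 ± 0.13 without reaching the fold threshold, which it did reach without WT cerebellum 3 (0.619) or WT cortex 2 (0.588). *Cldn11*, the claudin of myelin tight junctions, was at 0.29 ± 0.15, and *Mal* and *Opalin* had negative values, -0.13 ± 0.13 and -0.38 ± 0.17; these 3 did not pass. *Mal* encodes a lipid-raft proteolipid and *Opalin* a sialylated membrane protein of late oligodendrocytes. *Mog* was under the fold threshold without WT cerebellum 1 (0.48), WT cerebellum 2 (0.44) or WT cortex 3 (0.48), and *Opalin* passed both thresholds without WT cerebellum 1 (-0.62). Of the enzymes, *Ugt8a*, which makes galactosylceramide, and *Fa2h*, which hydroxylates the fatty acids of myelin lipids, were 0.78 ± 0.08 and 0.85 ± 0.13 higher in cerebellum. *Aspa*, which splits N-acetylaspartate to acetate, passed the test at 0.46 ± 0.11 and was past both thresholds without WT cerebellum 2 (0.54) or WT cortex 3 (0.524).

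The widest differences were among the other mature genes, 6 of 9 of which were higher in cerebellum past both thresholds. *Nkx6-2*, a homeodomain factor of maturing oligodendrocytes, was at 108, 104 and 81.6 CPM in the WT cerebella and at 18.3, 18.5 and 19.1 in the WT cortices. The groups lay far apart, and the log2 fold change was 2.39 ± 0.11 (SE; edgeR, adjusted p = 1.95e-08). *Trf* was at 766 to 883 CPM against 212 to 256, a log2 fold change of 1.84 ± 0.09. *Apod*, a lipid-binding lipocalin, *Gjb1* and *Gjc3*, both connexins of oligodendrocyte gap junctions, and *Tmem88b* were higher by 1.498, 1.35, 1.16 and 0.58; *Tmem88b* was at 0.49 without WT cerebellum 1. *Plekhh1* and *Gpr37*, a receptor on myelinating cells, passed the test but not the fold threshold. With 1 WT library left out *Plekhh1* was past both thresholds in 4 cases, at 0.501 to 0.524, and *Gpr37* in 2, at 0.512 and 0.511. *Sirt2*, a deacetylase of the myelin sheath, did not pass (0.17 ± 0.08). With the mouse as a block, the same 20 genes were past both thresholds.

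The second comparison asked how the 33 genes stood in KO cortex. Most of the mature genes had negative fold changes of small size in KO cortex, none of which passed the test by itself, and both precursor genes had positive ones. No gene of the 33 was past both thresholds in edgeR's quasi-likelihood test, against 0.00548% of the 18255 genes tested, and no adjusted p was under 0.05. At an unadjusted p under 0.05, 15 of the 33 (45.5%) were lower, against 2.26% of all genes, and 0 of the 33 were higher, against 2.24%. In 15 of the 33 all KO cortices lay below all WT cortices, against 4.67% of all genes, and in 1, *Cspg4*, above, against 4.57%. In all, 29 of the 33 had a negative fold change, where 50.0% of all genes did, and the median was -0.24 over the 33 and 8.19e-05 over all genes. DESeq2 gave 1 gene, *Trf*, an adjusted p under 0.05 in the lower direction, where it did so for 0.0712% of all genes, and 0 past both thresholds, where 0.0164% of all genes were higher and 0.0329% lower. It gave 11 lower at an unadjusted p under 0.05, against 1.59% of all genes. Without a filter on low counts, edgeR gave 12 genes an adjusted p under 0.05, all lower, against 0.361% of all genes, and *Mal* and *Opalin* were lower past both thresholds, against 0.203%.

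**Figure D2:**
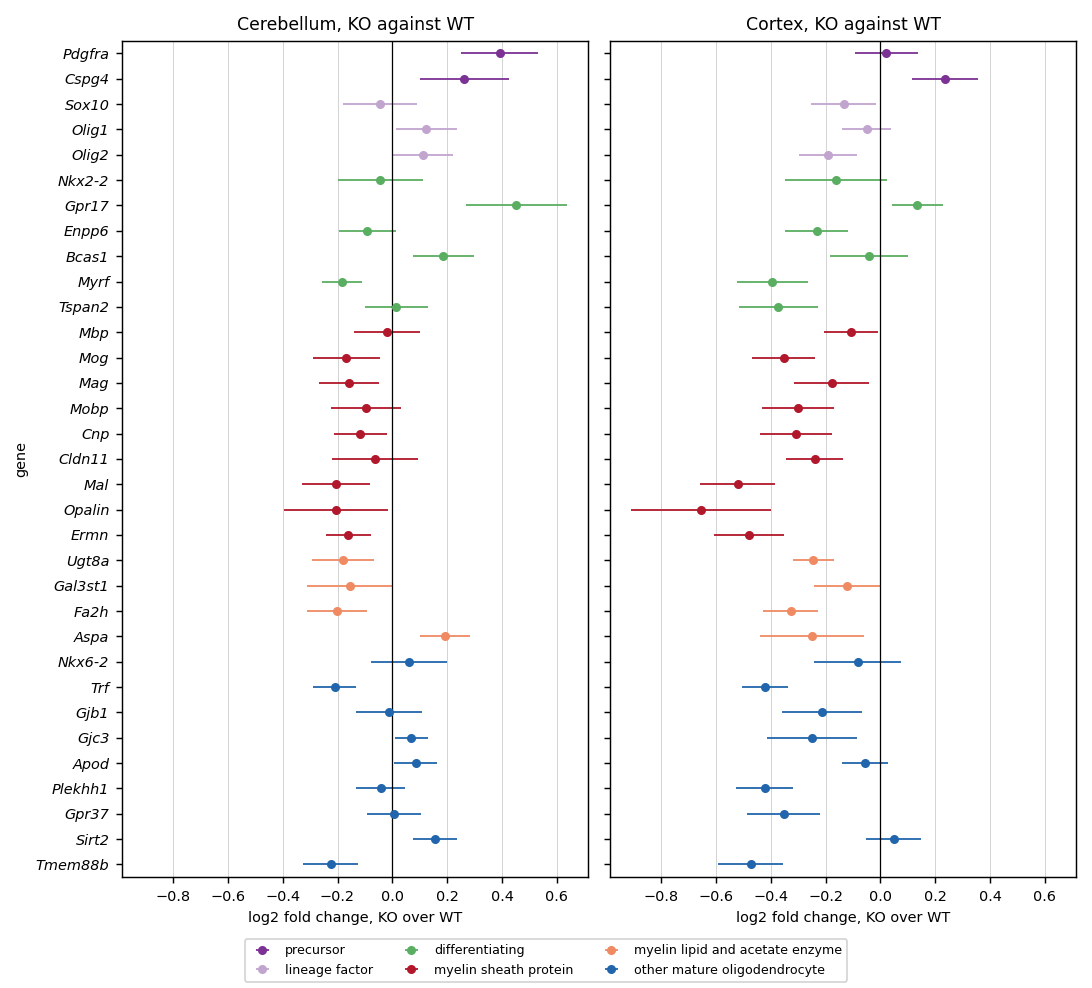
Log2 fold change of KO over WT (x axis) for each of the 33 genes (y axis) in cerebellum (left) and cortex (right), from edgeR, with bars of 1 standard error and colours for the 6 groups; 3 libraries per group. In cortex 29 of the 33 points lie left of 0, the lowest being *Opalin* at -0.65; in cerebellum 20 do, and *Pdgfra* and *Gpr17* lie to the right at 0.39 and 0.45.

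Among the mature genes, *Trf* had the smallest p. Its level was 212, 231 and 256 CPM in the WT cortices and 167, 187 and 166 in the KO cortices. The groups did not overlap, the KO mean was 74.6% of the WT mean, and the log2 fold change was -0.42 ± 0.08 (SE; edgeR, adjusted p = 0.682; DESeq2, adjusted p = 0.00339). KO cortex 2 was the highest of the KO cortices here, and without that library the log2 fold change was -0.48. The reads it shares with *Gm20425* limit what this value says of either model.

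*Tmem88b* and *Plekhh1*, genes of mature oligodendrocytes that encode a membrane protein and a protein with pleckstrin homology domains, came next. *Tmem88b* was at 71.9, 67.6 and 80.4 CPM in the WT cortices and at 60.6, 42.1 and 55.8 in the KO cortices, a log2 fold change of -0.47 ± 0.12 (edgeR, adjusted p = 0.883). *Plekhh1* was at 45.1, 40.4 and 45.1 CPM and at 35.9, 27.4 and 34.3, a log2 fold change of -0.42 ± 0.10 (edgeR, adjusted p = 0.883). In both genes every KO cortex lay below every WT cortex and KO cortex 2 was the lowest. *Gpr37* was at -0.35 ± 0.13, with no overlap. *Gjb1* and *Gjc3* were at -0.21 ± 0.15 and -0.25 ± 0.16, *Nkx6-2* and *Apod* at -0.08 ± 0.16 and -0.06 ± 0.08, and *Sirt2* at 0.05 ± 0.10, and the KO and WT values of these 5 overlapped.

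All 9 sheath protein genes had a negative value in cortex, with a median of -0.31, 7 of them at an unadjusted p under 0.05. *Mal* was at 347, 415 and 362 CPM in the WT cortices and at 288, 193 and 302 in the KO cortices. The KO cortices were all lower, with a mean of 69.7% of the WT mean and a log2 fold change of -0.52 ± 0.14 (SE; edgeR, adjusted p = 0.971). *Ermn*, which encodes an actin-binding protein of the outer myelin lip, was at 71.5, 75.8 and 82.0 CPM against 55.9, 42.2 and 66.5. These groups did not overlap either, and the log2 fold change was -0.48 ± 0.13 (edgeR, adjusted p = 0.971).

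*Opalin* had the lowest fold change of the 33, -0.65 ± 0.25, and the widest error. Its level was 34.3, 35.3 and 34.0 CPM in the WT cortices and 26.5, 10.6 and 29.0 in the KO cortices. KO cortex 2 was far below the other KO cortices, which were themselves below WT, and leaving it out gave a log2 fold change of -0.32. *Mog*, a glycoprotein on the outer face of myelin, was at 98.4, 105 and 92.4 CPM against 81.6, 61.2 and 89.1, a log2 fold change of -0.35 ± 0.11 with no overlap. *Mobp* and *Cnp*, a cyclic nucleotide phosphodiesterase that keeps cytoplasmic channels open in myelin, were at -0.30 ± 0.13 and -0.31 ± 0.13, and *Cldn11* at -0.24 ± 0.10. *Mag*, an adhesion molecule of the innermost myelin layer, and *Mbp* were nearest to 0, at -0.18 ± 0.14 and -0.11 ± 0.10. The level of *Mbp* was 2965 to 3149 CPM in the WT cortices and 2952, 2314 and 3272 in the KO cortices, so that KO cortex 3 was above every WT cortex. Without KO cortex 2, *Mbp* and *Mag* were at 0.02 and 0.00.

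The 4 lipid and acetate enzymes were all at negative values in cortex. *Fa2h* was at 43.0, 33.4 and 38.5 CPM in the WT cortices and at 32.0, 29.7 and 29.9 in the KO cortices, and *Ugt8a* at 95.6, 87.7 and 88.9 against 70.3, 76.5 and 82.7. In both genes the KO cortices were all lower, for *Ugt8a* with a wider spread than in WT, and the log2 fold changes were -0.33 ± 0.10 and -0.25 ± 0.08. *Gal3st1*, the sulfotransferase that makes sulfatide, was at -0.12 ± 0.12 and *Aspa* at -0.25 ± 0.19, and both were at -0.02 without KO cortex 2.

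The earlier stages were less uniform in cortex. *Myrf*, the factor that switches on myelin genes, was at 40.7, 40.9 and 49.9 CPM in the WT cortices and at 37.2, 26.3 and 36.5 in the KO cortices. The groups did not overlap, and the log2 fold change was -0.39 ± 0.13. *Tspan2*, a tetraspanin of newly myelinating cells, was at -0.37 ± 0.14 and *Enpp6* at -0.23 ± 0.11, both with no overlap, and *Nkx2-2* and *Bcas1* were at -0.16 ± 0.19 and -0.04 ± 0.14. *Gpr17* had a positive value, 0.13 ± 0.09. The lineage factors were at -0.13 ± 0.12 (*Sox10*), -0.05 ± 0.09 (*Olig1*) and -0.19 ± 0.11 (*Olig2*). *Pdgfra* was at 58.5 to 80.3 CPM in the WT cortices and 62.6 to 78.2 in the KO cortices, a log2 fold change of 0.02 ± 0.11. *Cspg4* was at 13.96 to 16.74 CPM against 17.2 to 20.4, without overlap, and its log2 fold change was 0.23 ± 0.12. By group, the medians ran from 0.13 for the precursor genes over -0.13 for the lineage factors and -0.20 for the genes of differentiating cells to -0.31, -0.25 and -0.25 for the sheath proteins, the enzymes and the other mature genes.

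One library weighed heavily on these values. KO cortex 2 was the lowest of the 6 cortices in 26 of the 33 genes and in 18 of the 22 mature genes, where it was the lowest in 23.5% of all genes tested. Its score over the 22 mature genes, the mean log2(CPM + 1) less the mean of the WT cortices, was -0.587, where KO cortex 1 and KO cortex 3 were at -0.186 and -0.126 and the WT cortices at -0.0165 to 0.03. It was also the library with the high meningeal sum given above. Without KO cortex 2, 25 of the 33 genes had a negative fold change, among them *Pdgfra*, which was positive with that library. The median of the 33 was -0.131. At an unadjusted p under 0.05, 11 genes were lower, where 2.68% of all genes were, and 1 gene, *Sirt2*, was higher, where 1.77% were. *Mobp*, *Cnp*, *Cldn11*, *Tspan2* and *Gpr37* had no unadjusted p under 0.05 without KO cortex 2, at log2 fold changes of -0.14, -0.13, -0.12, -0.19 and -0.19. *Apod*, at -0.155, had one. *Mal*, *Mog* and *Myrf* were at -0.34, -0.21 and -0.25, and *Gjc3* and *Nkx2-2* at -0.03 and -0.05. *Sox10* and *Olig2* were at -0.05 and -0.09, and *Olig1*, *Bcas1* and *Nkx6-2* turned positive, at 0.03, 0.13 and 0.11. *Cspg4* was at 0.15 and *Pdgfra* at -0.02. KO cortex 1 and KO cortex 3 both lay below all 3 WT cortices in 16 of the 33 genes, where they did in 9.78% of all genes. The sheath protein median moved from -0.31 to -0.144 without it, and the lineage factor median from -0.13 to -0.0491. The medians of the precursor genes, the genes of differentiating cells, the enzymes and the other mature genes were 0.0685, -0.12, -0.134 and -0.155 without it.

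**Figure D3:**
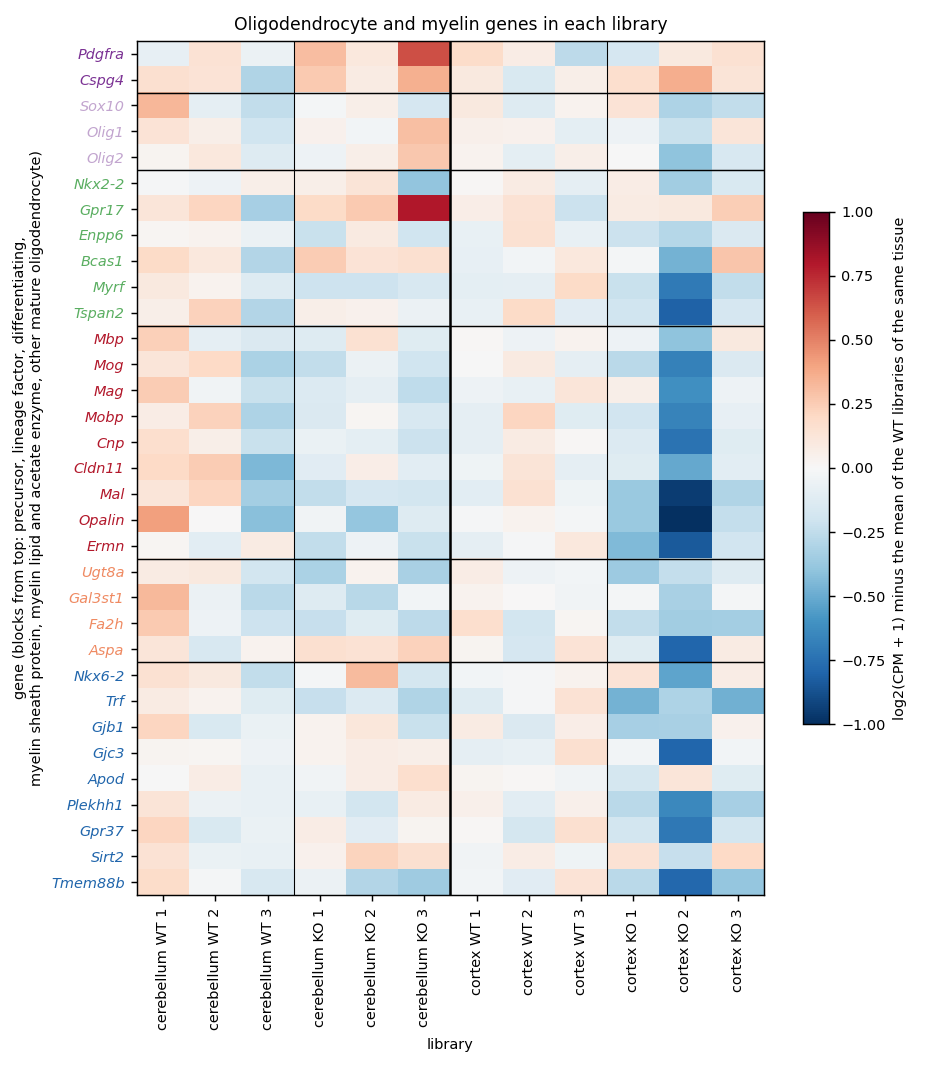
Level of each of the 33 genes (rows, in blocks by group) in each of the 12 libraries (columns), as log2(CPM + 1) less the mean of the WT libraries of the same tissue; blue is lower, red higher, and values beyond -1 or 1 take the end colours. KO cortex 2 is blue in most rows below the precursor genes and is the lowest cortex in 26 of 33, and KO cerebellum 3 is reddest for *Gpr17* and *Pdgfra*.

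The third comparison asked the same in cerebellum. There the sheath protein genes had small negative values in KO and the 2 precursor genes positive ones, and of these 11 genes 1, *Pdgfra*, had an unadjusted p under 0.05. No gene of the 33 was past both thresholds in edgeR's quasi-likelihood test (0.00549% of the 18201 genes tested), nor in DESeq2 (0.841% of all genes higher and 0.0604% lower). At an unadjusted p under 0.05, 2 of the 33 (6.06%) were higher, *Pdgfra* and *Gpr17*, against 5.78% of all genes, and 2 (6.06%) were lower, *Myrf* and *Trf*, against 2.37%. DESeq2 called these 4 and *Tmem88b*, which was lower, at an unadjusted p under 0.05, where it called 4.91% of all genes higher and 2.36% lower. The KO values lay above all WT values in 2 genes, *Aspa* and *Gjc3*, against 6.22% of all genes, and below in *Myrf* and *Trf*, against 6.32%. The median was -0.04 over the 33 genes, of which 20 had a negative value, and -0.000616 over all genes, of which 50.1% did.

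*Pdgfra* was at 28.9, 34.1 and 29.4 CPM in the WT cerebella and at 38.2, 33.1 and 48.6 in the KO cerebella. KO cerebellum 3 was the highest and KO cerebellum 2 lay below WT cerebellum 2, and the log2 fold change was 0.39 ± 0.14 (SE; edgeR, adjusted p = 0.472). *Cspg4* was at 0.26 ± 0.16, with overlap, and at 0.11 without WT cerebellum 3. *Gpr17* was at 44.6, 47.7 and 32.4 CPM in the WT cerebella and at 47.0, 49.4 and 72.2 in the KO cerebella, a log2 fold change of 0.45 ± 0.19 (edgeR, adjusted p = 0.556). Without KO cerebellum 3, the library with the high microglial sum, *Pdgfra* was at 0.22 and *Gpr17* at 0.22, and the 33 genes held 1 with an unadjusted p under 0.05, *Myrf*, which was lower, as were 1.64% of all genes. *Sox10*, *Olig1* and *Olig2* were at -0.04 ± 0.14, 0.12 ± 0.11 and 0.11 ± 0.11, and without KO cerebellum 3 *Olig1* and *Olig2* were at 0.0039 and 0.0049.

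*Myrf* was at 68.6, 65.6 and 58.3 CPM in the WT cerebella and at 55.4, 55.2 and 57.1 in the KO cerebella, all below WT. Its log2 fold change was -0.18 ± 0.07 (edgeR, adjusted p = 0.539). *Trf* was at 883, 852 and 766 CPM against 711, 755 and 673, also without overlap, and its log2 fold change was -0.21 ± 0.08 (edgeR, adjusted p = 0.483). In both genes, every KO library of either tissue was thus below every WT library of that tissue. The share of all genes with this pattern in both tissues was not counted, and *Trf* shares reads with *Gm20425*. Of the rest of the differentiating group, *Bcas1* was at 0.19 ± 0.11, *Enpp6* at -0.09 ± 0.10, *Nkx2-2* at -0.04 ± 0.15 and *Tspan2* at 0.01 ± 0.12. With 1 library left out, *Bcas1* ran from 0.048 to 0.274 and *Enpp6* from -0.209 to -0.034.

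All 9 sheath protein genes had a negative value in KO cerebellum, with a median of -0.157 and a range from -0.21 (*Mal* and *Opalin*) to -0.02 (*Mbp*), and none had an unadjusted p under 0.05. *Mal* was at 368, 391 and 267 CPM in the WT cerebella and at 284, 299 and 296 in the KO cerebella. WT cerebellum 3 was the lowest of the 6 for *Mal*, and it was the lowest in 18 of the 33 genes, where it was in 18.6% of all genes tested. Without that WT library, 12 of the 33 genes were lower at an unadjusted p under 0.05, 7 of them sheath protein genes, where 2.25% of all genes were, and the median of the sheath group was -0.26; without WT cerebellum 1, which was the highest in 13 of the 33 and in 23.1% of all genes tested, the sheath median was -0.0422, the median of the 33 was 0.0237, none was lower at that p, and 4 were higher (*Aspa*, *Bcas1*, *Gpr17* and *Sirt2*), where 4.9% of all genes were. The sign of the median over the 33 genes in cerebellum thus turned on which WT mouse was counted. Of the enzymes, *Ugt8a*, *Fa2h* and *Gal3st1* were at -0.18 ± 0.11, -0.20 ± 0.11 and -0.15 ± 0.16, while *Aspa* was at 26.4 to 32.2 CPM in WT and 32.8 to 34.8 in KO, a log2 fold change of 0.19 ± 0.09. The other mature genes besides *Trf* ranged from -0.22 ± 0.10 (*Tmem88b*) to 0.16 ± 0.08 (*Sirt2*).

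**Figure D4:**
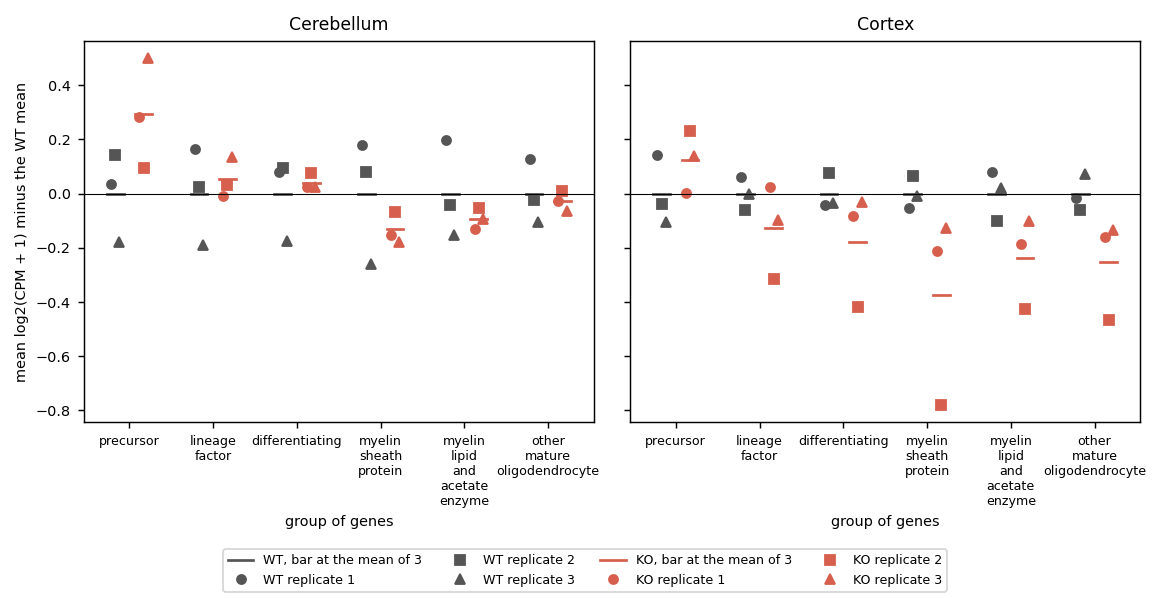
Score of each group of genes (x axis) in each library of cerebellum (left) and cortex (right): the mean over the group of log2(CPM + 1) less the mean of the WT libraries of that tissue. Grey marks are WT and red marks KO, with circles, squares and triangles for replicates 1, 2 and 3 and a bar at the mean of 3. For the sheath proteins, KO cortex 2 is at -0.78 and the other KO cortices at -0.212 and -0.127, and the WT cerebella spread from -0.259 to 0.179.

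The difference between the 2 tissues was then tested itself, as the interaction of tissue and genotype over all 12 libraries. A positive value means that the KO over WT fold change was higher in cerebellum. By edgeR's quasi-likelihood test or by DESeq2, none of the 33 genes was past both thresholds, and neither were any of the 19380 genes tested by edgeR (0.0%). DESeq2 gave 39 genes past them among all genes (0.196% higher and 0.00516% lower). At an unadjusted p under 0.05, 1 gene was higher, *Plekhh1*, at 0.36 ± 0.15, against 3.97% of all genes, and 0 were lower, against 1.71%. With the mouse as a block, which the sample titles pair across tissues, 4 were (*Plekhh1*, *Gpr37*, *Tspan2* and *Aspa*), all higher, where 4.01% of all genes were. Of the 33 values 32 were positive, with a median of 0.187. Of all genes 50.9% had a negative value, with a median of -0.00428 over all genes. Without KO cortex 2 the median of the 33 was 0.0881. A difference in the knockout effect between the tissues was therefore not shown for any single gene, with 95% intervals such as -0.17 to 0.77 for *Mal* and -0.06 to 0.45 for *Trf*.

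Within each library, the mature genes can be set against the precursor genes of the same library. The mature score less the precursor score was -0.154 to 0.133 in the WT cortices and -0.187, -0.818 and -0.265 in the KO cortices. It was -0.127 to 0.124 in the WT cerebella and -0.38, -0.129 and -0.615 in the KO cerebella. By these values, all KO libraries were below all WT libraries of their tissue, KO cerebellum 2 only just. The precursor side of these values rests on 2 genes, *Pdgfra* and *Cspg4*, and which cell types held their transcripts was not tested. With 12 other precursor genes in their place, described below, the separation held in cortex but not in cerebellum. KO cerebellum 2 had a mature score of -0.034 and a score of 0.0399 over those 12 genes. WT cerebellum 3 had -0.176 and -0.0974, so that its balance was slightly below that of KO cerebellum 2.

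Other genes of the lineage were listed apart from the 33. Of 28 other genes of mature oligodendrocytes, 26 had a negative value in KO cortex, where 50.0% of all genes did, 10 were lower at an unadjusted p under 0.05 (2.26% of all genes) and 0 were higher (2.24%), none had an adjusted p under 0.05, and the median was -0.184. Without KO cortex 2, 7 were lower at that p (2.68% of all genes) and the median was -0.128. The smallest p were those of *Evi2a*, at 20.5 ± 1.45 CPM in KO and 27.2 ± 0.685 in WT (SD, n = 3), and of *Efnb3*, a B-type ephrin, at 50.1 ± 6.34 against 67.1 ± 7.05. In cerebellum 20 of these 28 had a negative value, where 50.1% of all genes did. The median of the 28 was -0.0694 (0.00407 without WT cerebellum 1). At an unadjusted p under 0.05, 3 were lower (2.37% of all genes) and 2 higher (5.78%). Without KO cerebellum 3, 2 were lower (1.64%) and 1 higher (3.27%). *Anln*, which encodes the septin scaffold anillin of myelin, was at 53.9 ± 6.37 CPM in KO and 71.6 ± 8.61 in WT, and *S1pr5*, a sphingosine phosphate receptor of oligodendrocytes, at 23.4 ± 0.741 and 29.4 ± 3.58. Neither group pair overlapped.

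Precursor and differentiation genes outside the 33 had medians near 0 in KO cortex, which were negative without KO cortex 3 (-0.0459 and -0.035). Of 12 other precursor genes, 8 had a positive value there with a median of 0.0135 (0.0343 without KO cortex 2), and *Matn4* and *Vcan*, both of the extracellular matrix, had the smallest p, at 0.20 ± 0.15 and 0.14 ± 0.11. In cerebellum 9 of the 12 were positive with a median of 0.175, led by *C1ql1* (0.58 ± 0.22) and *Lhfpl3* (0.21 ± 0.08), and these 2 were higher at an unadjusted p under 0.05 (5.78% of all genes). Without KO cerebellum 3 that median was 0.102, none had such a p, and *C1ql1* was at 0.33. Of 11 other differentiation genes, 8 had a positive value in cortex, with a median of 0.0294 (0.0857 without KO cortex 2), and *Bmp4* (0.54 ± 0.27, and 0.13 without KO cortex 2) and *Elovl7* (-0.13 ± 0.12) had the smallest p. In cerebellum 9 of the 11 were positive, with a median of 0.328, and 6 were higher at an unadjusted p under 0.05 (5.78% of all genes). Without KO cerebellum 3, the library with the high microglial sum, the median was 0.202 and 3 were higher at that p (3.27% of all genes). *Bmp4*, a bone morphogenetic protein, was at 5.49 ± 0.655 CPM in KO and 2.46 ± 0.814 in WT cerebellum. *Tcf7l2*, a Wnt effector of differentiating oligodendrocytes that thalamic neurons also express, was at 62.4, 6.56 and 64.1 CPM in the KO cerebella and 6.84, 8.08 and 4.72 in the WT cerebella. It was thus high in KO cerebellum 1 and KO cerebellum 3 and within the WT range in KO cerebellum 2. None of the 23 genes had an adjusted p under 0.05 in either tissue by edgeR.

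Lipid enzymes that myelin shares with other cells were counted apart. Of 12 such enzymes, mostly of cholesterol and sphingolipid synthesis, 8 had a positive value in KO cortex with a median of 0.136, 5 were higher (2.24% of all genes) and 1 lower (2.26%) at an unadjusted p under 0.05, and none had an adjusted p under 0.05 by edgeR. The score of the 12 was 0.266 in KO cortex 2, -0.00657 in KO cortex 1 and 0.113 in KO cortex 3, and without KO cortex 2 the median was 0.0827 and 3 were higher (1.77% of all genes) and 1 lower (2.68%) at that p. *Fdft1*, squalene synthase, was at 126 ± 12.4 CPM in KO and 100 ± 2.32 in WT, without overlap, and *Sqle*, squalene epoxidase, at 92.7 ± 22.8 and 68.6 ± 4.55, with overlap. The log2 fold change of *Sqle* was 0.44 ± 0.14, and 0.22 without KO cortex 2. In cerebellum 8 of the 12 were positive with a median of 0.0671 (0.00588 without WT cerebellum 3, 0.0392 without KO cerebellum 3) and none had an unadjusted p under 0.05. *Cers2*, a ceramide synthase, had a log2 fold change of -0.11 ± 0.06 there.

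Markers of other cells had medians of different size. Of 7 Schwann cell markers 3 were tested in each KO comparison, and *Pmp2*, a lipid-binding protein of peripheral myelin, was at 0 counts in 11 of the 12 libraries. The summed level of the 7 was 2.26 to 3.222 CPM in the cerebella, 7.14 to 33.05 in the WT cortices and 4.314 to 20.13 in the KO cortices, and with 1 library left out their median ran from -0.302 to 0.147 in cerebellum and from -0.718 to -0.0758 in cortex. The 16 meningeal markers all had positive values in both tissues, with medians of 1.15 in cerebellum and 0.624 in cortex, and the cortical median was 0.162 without KO cortex 2. In cortex, the median was 0.197 over 8 endothelial markers (0.142 to 0.316 with 1 library left out), 0.287 over 8 mural cell markers (0.131 to 0.413), 0.0729 over 9 markers of excitatory neurons (0.0753 to 0.119), 0.082 over 9 astrocyte markers (-0.00384 to 0.163) and 0.0856 over 10 microglial markers (-0.0286 to 0.161). In cerebellum, it was 0.28 for astrocytes (0.158 to 0.309), 0.809 for microglia (0.237 to 1.07, the lowest without KO cerebellum 3), 0.185 for endothelium (0.0736 to 0.249) and 0.0826 for mural cells (-0.0371 to 0.282). Over 9 markers of granule neurons it was -0.262 in cerebellum (-0.399 to -0.123), and their summed level was 2930 to 3666 CPM in KO and 3523 to 4140 in WT. The part of these shifts in the values of the 33 genes was not tested.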

How the data were processed

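Per the labels, RNA was extracted with TRIzol from frozen cerebellum and cortex and made into libraries with an NEBNext Ultra kit. The authors trimmed the paired reads, aligned them to GRCm38 with STAR and deposited 1 table per library of read counts per gene, from featureCounts (Subread 2.0.1), which by its recorded command counted a read in every gene it overlapped and did not use strand. Reads of overlapping genes thus count for each of them, on either strand. The deposited counts were used as they are. The tables hold 55536 annotated genes and 26248 further numbered features, which took 0.0506% to 0.0632% of counts and were left out with the 97 spike-in rows.

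Each comparison was fitted across all genes with edgeR 4.0.16 (R 4.3.3): filterByExpr, TMM factors within the libraries compared, the quasi-likelihood test and Benjamini-Hochberg adjustment. Values in CPM used TMM factors over all 12 libraries. Values per kilobase divide CPM by the exon bases of the gene. Intervals are 95%, errors of fold changes are standard errors, and scores used log2(CPM + 1). DESeq2 1.42.0, DESeq2 size factors in edgeR, no filter on low counts, 1 fit over 12 libraries, the replicate number as a block, and each library left out in turn were the alternatives. The fits were tested on simulated counts. Each library comes from a different mouse of its tissue, per the labels.

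The titles give cerebellum and cortex of 1 genotype the same mouse numbers, and the deviations of such pairs correlated by 0.0178 to 0.338. Cerebellum and cortex of 1 genotype with different numbers correlated by -0.265 to 0.155, so the ranges overlapped. KO and WT numbers are names only. The groups came from the titles. The 33 genes and the other lists were chosen with earlier results of these data known. Besides *Snx14* and the 33 genes, the text names the 2 genes of smallest p in each other oligodendrocyte list and comparison, and marker genes of other cells only where they are at 0; some genes this rule picks are not reported here. The 4 promoter windows with the smallest p in cortex were shown, and *Mog* was added after its motif match was seen. At 16672589 to 19887427 counts per library, a member had 71 to 114480 counts in a library.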

Additional observations from a re-analysis of the deposited data

How the results depend on the processing

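Beside the values given with each comparison, the count of the 33 genes at an unadjusted p under 0.05 in cerebellum was 7 without a filter on low counts (2 higher, against 5.04% of all genes, and 5 lower, against 2.31%) and 1 to 12 with 1 library left out, where 3.27% to 7.24% of all genes were higher and 1.64% to 3.51% lower. In cortex, 2 of the 33 were lower past both thresholds without the filter, which tests more genes, against 0.203% of all genes. For the tissue difference, 10 of the 33 were higher at an unadjusted p under 0.05 without the filter (4.06% of all genes), 4 with the mouse as a replicate block (4.01%), and 0 to 3 with 1 library left out (2.88% to 5.42%). Of all genes, 347 in cerebellum, 149 in cortex and 386 for the tissue difference were past both thresholds without the filter, 164, 9 and 39 with DESeq2, 45 in cerebellum and 2 in cortex with 1 fit over 12 libraries, and 254 in cerebellum and 253 for the tissue difference without KO cerebellum 2. The cause was not tested. The replicate number as a block between KO and WT gave 1 of the 33 genes higher (5.64% of all genes) and 2 lower (2.15%) in cerebellum, 3 in all, and 14 lower (1.91%) in cortex at an unadjusted p under 0.05, and the numbers correlated by -0.0917 to 0.0811.

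Single fold changes near 0 changed sign. In cerebellum, *Tspan2* was at -6.38e-05 with 1 fit over 12 libraries, and *Gpr37* at -0.000644 without the filter, -0.00494 with DESeq2 size factors, -0.00493 with DESeq2 and -0.00909 with 1 fit over 12 libraries. With 1 library left out, the cerebellar ranges that crossed 0 were -0.168 to 0.133 for *Sox10*, -0.158 to 0.102 for *Nkx2-2*, -0.122 to 0.136 for *Tspan2*, -0.126 to 0.0971 for *Mbp*, -0.239 to 0.0246 for *Mobp*, -0.26 to 0.0591 for *Cldn11*, -0.401 to 0.0226 for *Opalin*, -0.29 to 0.0237 for *Gal3st1*, -0.0991 to 0.153 for *Nkx6-2*, -0.0922 to 0.097 for *Gjb1*, -0.128 to 0.0151 for *Plekhh1* and -0.0684 to 0.112 for *Gpr37*. In cortex they were -0.102 to 0.118 for *Pdgfra*, -0.138 to 0.0313 for *Olig1*, -0.23 to 0.134 for *Bcas1*, -0.219 to 0.0196 for *Mbp*, -0.311 to 0.00121 for *Mag*, -0.212 to 0.109 for *Nkx6-2*, -0.155 to 0.000808 for *Apod* and -0.0315 to 0.169 for *Sirt2*, and between the WT tissues -0.237 to 0.0233 for *Mal*.

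With 3 mice a group, the error of a fold change, 0.06 to 0.25 on the log2 scale for the 33 genes in the KO comparisons, was as large as many of the differences. The lowest count of any of the 33 genes in a library was 71, for *Nkx2-2* in cortex.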
